A study of Mus musculus with 15 samples.

Results

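The genes described here are small nucleolar RNAs (snoRNAs), the related small Cajal body RNAs (scaRNAs), and the long non-coding genes from whose introns many of them are cut. They are the rows of the deposited counts whose gene name is Gas5, is Snhg followed by a number, or begins with Snora, Snord or Scarna, and they were selected on 1 measured value, a summed estimated count of at least 150 over the 15 libraries. Such a name is carried by 171 of the 56748 rows, and 25 reached that count: 14 host gene rows, for 13 gene symbols, and 11 rows of short RNAs. Those sums are given as a description only. The member with the lowest sum was a second row named Snhg4 (ENSMUSG00000117694) at 475.5 counts, and the highest row outside was the short RNA Snora74a at 79.8 counts. All 25 members passed the filter on low counts that was applied before testing.

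The libraries came from mouse T helper 2 (Th2) cells, grown in culture under Th2 conditions from CD4+ T cells of the spleens of female mice. There were 4 groups: conditional knockout (cKO) cells restimulated through the T cell receptor (n = 4 libraries), cKO cells without restimulation (n = 3), restimulated control cells (n = 5) and control cells without restimulation (n = 3). Cells of all 4 groups carried Asb2 alleles flanked by loxP sites (Asb2 fl/fl); cKO cells had in addition VEC-Cre, in which VE-cadherin regulatory DNA drives Cre in endothelial cells and early blood progenitors. Restimulation began on day 5 and lasted 24 h, with antibodies to CD3ε bound to the plate (3 µg/ml) and to CD28 in solution (2 µg/ml); non-restimulated cells had neither. Whether each library is 1 animal is not stated, and p-values therefore reflect only how much libraries of a group differ. No age was given.

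SnoRNAs guide chemical modification and processing of ribosomal RNA. Box C/D snoRNAs (Snord) pair with a target and direct methylation of the ribose, while box H/ACA snoRNAs (Snora) direct the change of uridine to pseudouridine; scaRNAs (Scarna) do the same for the small nuclear RNAs of the spliceosome, in Cajal bodies. Most are trimmed out of introns of a host gene after splicing, so that 1 transcription unit gives a spliced host RNA and a stable short RNA whose levels need not move together. The spliced RNAs of many non-coding hosts, Gas5 among them, are short-lived and are removed by nonsense-mediated decay when they are translated; T cells that are activated to grow make more ribosomes.

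The sequences below show the kinds of short RNA the libraries held and the kind they missed. Scarna10 was the most abundant short RNA member; Snord17 is a long box C/D snoRNA; Snora73a and Snora73b are a pair of copies within Snhg3; Snord47 is a short box C/D snoRNA within Gas5 that had no counts. They are from GENCODE M21 on the GRCm38 build, which is older than the GRCm39 build named in the submitters' processing notes, and positions are GRCm38. Capitals mark the box C core TGATGA and the box D core CTGA in the Snord sequences and the ACA box near the 3′ end in the Snora sequences; none are marked in Scarna10, of which the first 300 of 325 bases are given.
Scarna10: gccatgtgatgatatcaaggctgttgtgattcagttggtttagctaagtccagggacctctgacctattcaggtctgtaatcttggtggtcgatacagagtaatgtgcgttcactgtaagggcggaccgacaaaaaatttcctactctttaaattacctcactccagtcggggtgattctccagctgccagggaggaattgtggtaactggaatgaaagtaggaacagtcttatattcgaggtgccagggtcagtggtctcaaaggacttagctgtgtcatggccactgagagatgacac
Snord17: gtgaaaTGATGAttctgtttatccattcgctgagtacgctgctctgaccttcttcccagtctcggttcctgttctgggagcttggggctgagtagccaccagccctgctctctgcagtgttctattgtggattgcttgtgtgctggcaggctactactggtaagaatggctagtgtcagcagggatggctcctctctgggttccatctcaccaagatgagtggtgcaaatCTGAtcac
Snora73a: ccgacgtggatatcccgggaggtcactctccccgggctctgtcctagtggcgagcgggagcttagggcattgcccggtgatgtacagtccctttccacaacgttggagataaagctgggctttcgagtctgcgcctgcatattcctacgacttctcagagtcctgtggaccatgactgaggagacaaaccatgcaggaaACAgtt
Snora73b: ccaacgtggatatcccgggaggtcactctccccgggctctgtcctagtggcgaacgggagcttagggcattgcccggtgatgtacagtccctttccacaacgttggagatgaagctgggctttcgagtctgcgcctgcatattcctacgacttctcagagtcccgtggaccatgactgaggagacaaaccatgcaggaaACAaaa
Snord47: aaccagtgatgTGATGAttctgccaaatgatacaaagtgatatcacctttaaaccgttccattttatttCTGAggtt

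Scarna10 lies at chr6:125186359-125186683 on the minus strand, within the span of Ncapd2, a condensin subunit gene. Snord17 lies at chr2:144265979-144266216 on the minus strand, within the span of Snx5, a sorting nexin gene. Snora73a (chr4:132352775-132352979) and Snora73b (chr4:132352322-132352526) lie on the minus strand within the overlapping spans of Snhg3 and Rcc1; both are 205 nt long and differ at 7 positions, an identity of 96.6%. Reads of such near copies may be split between them in the estimated counts, and their separate values are uncertain. Snord47 lies at chr1:161038082-161038158 on the plus strand within Gas5 and is 77 nt long. The core TGATGA was found in 54 of 75 matched Snord rows below the count threshold and CTGA in all 75 of them, so these letters do not set the members apart.

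Counts of short RNAs lay mostly in the longer rows. Of 153 short RNA rows, 148 could be matched to GENCODE M21, and 7 of those were members, of 205 to 414 nt. None of the 87 matched rows under 100 nt had a single count in any library. The 47 rows of 100 nt to under 150 nt held 57.3 counts in all, in 8 rows, and the 3 rows of 150 nt to under 200 nt held 82.8 counts. The 11 rows of 200 nt or more held 81961 counts, in 10 rows. The other 4 members, Snord3b1 to Snord3b4, copies of the U3 snoRNA that acts in the first cuts of the ribosomal RNA precursor, were not matched. The shorter RNAs cut from most of the host genes gave no counts: all 9 rows of short genes nested in Gas5, all 8 in Snhg1, the 4 in Snhg12, the 3 in Snhg17 and the 3 in Snhg16 had 0 counts in 15 libraries. Of the hosts, Snhg3 held Snora73a and Snora73b, with 3275.6 counts together, and Snhg10 held Scarna13.

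Before the members are described, the libraries and the labels were checked. Libraries held 17083701 to 24185341 estimated counts. Asb2, the targeted gene, had 9.58, 9.59, 9.44 and 9.36 CPM (estimated counts relative to library size, after TMM scaling) in restimulated cKO libraries and 34.1, 37.96, 32.3, 31.2 and 31.9 CPM in restimulated controls, a log2 fold change of -1.82 ± 0.18 (SE; adjusted p = 3.37e-04 by the Benjamini-Hochberg method, edgeR quasi-likelihood test). Without restimulation it had 12.7, 22.7 and 22.1 CPM in cKO libraries and 34.7, 25.6 and 49.7 CPM in controls, a log2 fold change of -0.94 ± 0.21 that did not pass the same test (adjusted p = 1). Which exons the loxP sites flank is not given in the sources used here, so a count over the whole gene checks the labels only in part. The 4 groups were all high in Cd4 (342 to 481 CPM) and Gata3 (545 to 827 CPM). Lyz2, Hbb-bs and Hba-a1 were at 0, and Csf1r, Cdh5, Kdr and Ncr1 did not exceed 0.37 CPM, in any library. The CD8 markers Cd8a and Cd8b1 together reached 5.83 to 19.3 CPM in restimulated cKO, 10.6 to 18.4 CPM in non-restimulated cKO, 8.25 to 28.8 CPM in restimulated control and 7.39 to 27.8 CPM in non-restimulated control libraries. The B cell markers together did not exceed 2.66 CPM in any library.

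Host genes were higher after restimulation in both genotypes. In cKO cells 12 of 14 host gene rows were called higher and none lower, at an adjusted p under 0.05 in edgeR's quasi-likelihood test over 15619 genes; over all these genes 26.7% were called higher and 27.1% lower. In control cells 8 of 14 were called higher and none lower, against 25.4% and 25.2% of all genes. The log2 fold change was above 0 for all 14 rows in both genotypes. Its median was 0.90 in cKO and 0.77 in control cells, beside -0.01 and 0.00 over all genes tested. In each genotype 5 of the 14 rows were called with a change of at least 2-fold. The share of all genes passing that cut was not taken, so this count has nothing to be read against. Fewer RNA molecules per cell and fewer cells of a type cannot be told apart in such bulk libraries.

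Gas5, a growth-arrest transcript that hosts box C/D snoRNAs, had the highest CPM of the hosts. It had 259, 295, 392 and 297 CPM in restimulated cKO libraries, against 174, 169 and 145 CPM without restimulation. In control cells it had 341, 298, 326, 275 and 318 CPM with restimulation and 182, 141 and 140 CPM without. Every restimulated library was above every non-restimulated one. The log2 fold change was 0.93 ± 0.13 in cKO cells (edgeR adjusted p = 1.51e-05) and 1.01 ± 0.12 in control cells (edgeR adjusted p = 4.42e-06). In the authors' length-scaled TPM (transcript abundance per length) Gas5 averaged 629 ± 119 (SD, n = 4) and 350 ± 40.6 (n = 3) in restimulated and non-restimulated cKO cells, and 641 ± 120 (n = 5) and 317 ± 81.2 (n = 3) in the corresponding controls. On that scale Gas5 was the most abundant host as well. In GENCODE M21 Gas5 overlaps Zbtb37, Snhg6 overlaps Mcmdc2 and Snhg16 overlaps St6galnac2, each on the other strand; the kit keeps strand, per the labels' protocols, but the setting used to count was not given in the sources used here.

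Snhg1, a host of box C/D snoRNAs, had 133, 171, 271 and 188 CPM in restimulated cKO libraries and 66.5, 82.4 and 63.9 CPM in non-restimulated ones. Control libraries had 203, 173, 155, 148 and 202 CPM with restimulation and 76.1, 57.9 and 87.0 CPM without. The groups did not overlap within either genotype, and the lowest restimulated library was in the cKO group. The log2 fold changes were 1.43 ± 0.20 in cKO and 1.26 ± 0.20 in control cells (edgeR adjusted p = 4.97e-05 and 1.17e-04). Snhg12, which hosts mainly box H/ACA snoRNAs, showed the steepest change of the 14 rows in cKO cells. It had 50.1, 57.5, 102 and 60.9 CPM in restimulated cKO libraries and 18.7, 30.5 and 16.5 CPM in non-restimulated ones. With restimulation the control libraries had 81.9, 65.7, 57.9, 49.0 and 72.5 CPM, and without it 26.5, 17.11 and 33.3 CPM. Library 3 of the restimulated cKO group stood above the others, but no library of either genotype crossed between conditions. The log2 fold changes were 1.63 ± 0.29 in cKO and 1.35 ± 0.28 in control cells (edgeR adjusted p = 5.34e-04 and 0.00165).

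**Figure D1:**
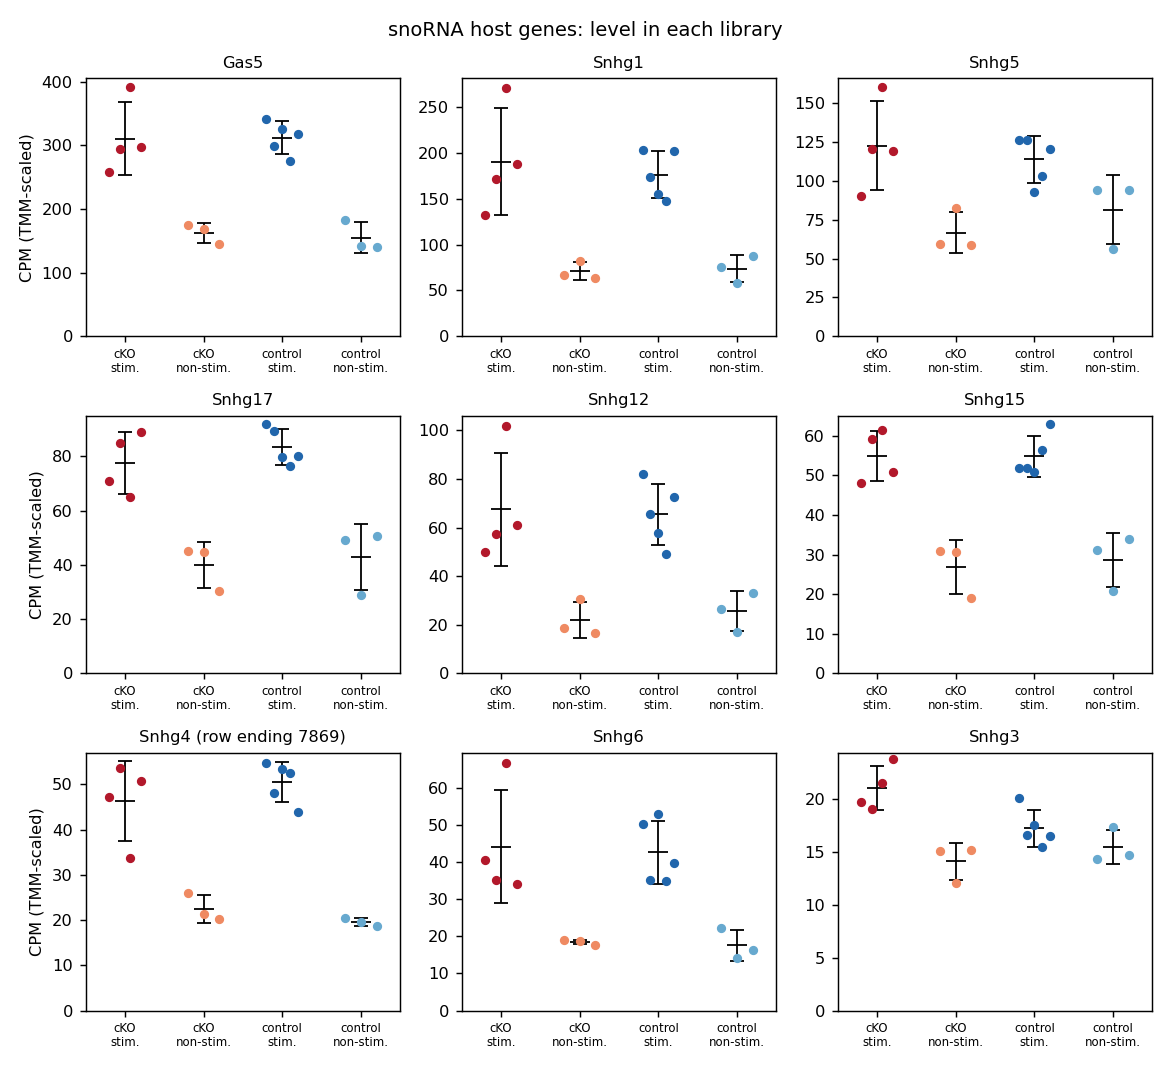
Level of 9 host gene rows in each library, in TMM-scaled CPM on an axis from 0, by group; points are libraries, bars the mean ± SD. Gas5 sits at 259 to 392 CPM in restimulated cKO libraries against 145 to 174 CPM in non-restimulated ones, while Snhg3 in control cells overlaps between conditions.

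Snhg6, the host of Snord87, had 40.6, 35.2, 66.8 and 34.1 CPM in restimulated cKO libraries and 19.0, 18.6 and 17.8 CPM in non-restimulated ones. Controls had 50.2, 35.1, 53.0, 34.9 and 39.6 CPM with restimulation and 22.2, 14.1 and 16.4 CPM without. The 3 non-restimulated cKO libraries lay close together and all restimulated libraries lay above them, with log2 fold changes of 1.25 ± 0.23 in cKO and 1.28 ± 0.22 in control cells (edgeR adjusted p = 3.70e-04 and 2.57e-04). The main Snhg4 row (ENSMUSG00000117869), host of Snora74a, had 47.2, 53.8, 33.7 and 50.8 CPM in restimulated cKO libraries and 26.01, 21.3 and 20.3 CPM in non-restimulated ones. In controls it had 54.8, 48.1, 53.5, 52.5 and 44.0 CPM with restimulation and 20.4, 19.6 and 18.8 CPM without. This row had the smallest p of the 14 in both genotypes, with log2 fold changes of 1.04 ± 0.14 in cKO and 1.37 ± 0.13 in control cells (edgeR adjusted p = 6.67e-06 and 2.45e-07), and its lowest restimulated value was in the same cKO library 3 that was highest for Snhg12 and Snhg6. The second Snhg4 row, which GENCODE M21 types as protein-coding, overlaps the first and also the gene Matr3 on the same strand. It stayed between 0.850 and 2.77 CPM in all libraries and was not called in any comparison. How reads were shared between these overlapping genes was not tested.

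Snhg17 had 70.7, 85.1, 65.1 and 89.0 CPM in restimulated cKO libraries and 45.0, 44.7 and 30.3 CPM in non-restimulated ones. Among controls it had 91.9, 89.2, 79.9, 76.4 and 80.0 CPM with restimulation and 49.3, 28.8 and 50.7 CPM without. The conditions did not overlap, and both genotypes gave a log2 fold change of 0.96, with SEs of 0.18 in cKO and 0.17 in control cells (edgeR adjusted p = 3.21e-04 and 2.42e-04). Snhg15, host of the box H/ACA snoRNA Snora9, had 48.2, 59.0, 61.4 and 50.8 CPM in restimulated cKO libraries and 30.9, 30.6 and 19.0 CPM in non-restimulated ones. With restimulation the controls had 51.8, 51.9, 50.7, 56.5 and 62.9 CPM, and without it 31.1, 20.8 and 33.9 CPM. Again the conditions did not overlap, at log2 fold changes of 1.03 ± 0.17 in cKO and 0.93 ± 0.16 in control cells (edgeR adjusted p = 1.00e-04 and 1.90e-04). Snhg16, host of Snord1a, Snord1b and Snord1c, averaged 17.2 ± 1.28 CPM (SD, n = 4) and 10.9 ± 2.12 CPM (n = 3) in restimulated and non-restimulated cKO cells, and 18.0 ± 3.16 CPM (n = 5) and 11.8 ± 2.83 CPM (n = 3) in the corresponding controls. Its log2 fold changes were smaller, 0.65 ± 0.17 in cKO and 0.61 ± 0.17 in control cells (edgeR adjusted p = 0.00459 and 0.00585); in control cells the call ended without library 2 of the non-restimulated group, at an adjusted p of 0.0505.

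Of the remaining hosts 4 were called in cKO cells only, which by itself is no difference between the genotypes. Snhg5, host of Snord50a and Snord50b, had 90.4, 121, 160 and 119 CPM in restimulated cKO libraries and 59.5, 82.2 and 58.5 CPM in non-restimulated ones. In control cells it had 126, 126, 92.6, 103 and 121 CPM with restimulation and 94.4, 56.0 and 94.1 CPM without. Its conditions overlapped only in the controls, and the log2 fold changes were 0.88 ± 0.21 in cKO (edgeR adjusted p = 0.00259) and 0.48 ± 0.20 in control cells (edgeR adjusted p = 0.0577). Snhg3, host of Snora73a and Snora73b, had 19.7, 19.1, 21.5 and 23.8 CPM in restimulated cKO libraries and 15.1, 12.04 and 15.2 CPM in non-restimulated ones. With restimulation the control libraries had 20.1, 16.5, 17.6, 15.4 and 16.5 CPM, and without it 14.3, 17.3 and 14.7 CPM. The cKO conditions were apart and the control conditions overlapped, at log2 fold changes of 0.57 ± 0.12 (edgeR adjusted p = 8.59e-04) and 0.16 ± 0.12 (edgeR adjusted p = 0.293). The test of that difference, the interaction, gave a log2 difference of 0.42 ± 0.17 with an edgeR p of 0.0253 and an adjusted p of 0.997. Snhg3 overlaps Rcc1 on the same strand in GENCODE M21, and Rcc1, a nucleotide exchange factor of Ran, was called higher in both genotypes (log2 fold changes of 0.68 ± 0.14 in cKO and 0.53 ± 0.14 in control cells; edgeR adjusted p = 7.98e-04 and 0.00390), so reads of both genes may be mixed in the Snhg3 row.

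Snhg8 and Snhg10 were called in cKO cells with log2 fold changes of 0.56 ± 0.19 and 0.59 ± 0.23 (edgeR adjusted p = 0.0231 and 0.0398), and had 0.40 ± 0.19 and 0.35 ± 0.22 in control cells (edgeR adjusted p = 0.0849 and 0.198). Both calls were fragile: Snhg8 lost its call without library 3 of the restimulated cKO group, where it had 30.4 CPM beside 16.4, 16.7 and 14.5 CPM in the others, and also without library 1 or 2 of the non-restimulated cKO group. Snhg10 lost its call without library 1 or 2 of the restimulated or any 1 of the 3 non-restimulated cKO libraries. Snhg20 was not called in either genotype, at 0.10 ± 0.18 in cKO and 0.41 ± 0.17 in control cells (edgeR adjusted p = 0.661 and 0.0536), and its cKO value fell below 0 when library 2 of the restimulated cKO group was left out.

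Some markers of other cell types were called lower with restimulation, as were 27.1% of all genes in cKO and 25.2% in control cells. None of the CD8 and B cell markers tested was called in either genotype. Of the 4 myeloid markers Adgre1 and Itgax were called lower. The 4 together had 0.645 to 2.67 CPM in restimulated and 11.5 to 18.0 CPM in non-restimulated cKO libraries, and 1.01 to 2.23 CPM and 11.3 to 22.3 CPM in the corresponding controls. Adgre1 and Itgax made up nearly all of that sum, with Lyz2 at 0 and Csf1r at no more than 0.0517 CPM in any library. The NK markers, mostly Klrb1c, had 0.243 to 2.03 CPM in restimulated and 3.51 to 6.40 CPM in non-restimulated cKO libraries. In the corresponding controls they had 0.372 to 2.01 CPM and 3.05 to 18.1 CPM. Klrb1c was called lower in both genotypes, and Ncr1 did not exceed 0.37 CPM in any library. The endothelial markers, nearly all Pecam1, a cell adhesion molecule that T cells also carry, had 44.7 to 58.2 CPM in restimulated and 165 to 197 CPM in non-restimulated cKO libraries, and 44.4 to 77.2 CPM and 172 to 191 CPM in the corresponding controls. Their part in the host gene result was not tested.

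Genes whose proteins package snoRNAs changed alongside. All 4 box C/D core protein genes were called higher in both genotypes. Fbl, the methyltransferase fibrillarin, had log2 fold changes of 0.79 ± 0.13 in cKO and 0.79 ± 0.13 in control cells, and Snu13 0.96 ± 0.13 and 0.75 ± 0.13. Of the 4 box H/ACA core protein genes 3 were called higher in both genotypes, among them Dkc1, the pseudouridine synthase dyskerin, at 1.17 ± 0.11 in cKO and 1.02 ± 0.11 in control cells, and Gar1 at 1.07 ± 0.15 and 0.94 ± 0.14. Nop10 was not called, at 0.46 ± 0.20 and 0.35 ± 0.19 (edgeR adjusted p = 0.0566 and 0.130). Of 13 genes for assembly and Cajal body factors 9 were called higher and none lower in cKO cells, and 8 higher and 1 lower in control cells; over all genes 26.7% were higher and 27.1% lower in cKO cells, and 25.4% and 25.2% in control cells. Shq1, a dyskerin chaperone, had 1.17 ± 0.19 in cKO and 1.27 ± 0.18 in control cells, and Ruvbl1, an AAA+ ATPase of the assembly machinery, 1.01 ± 0.12 and 1.01 ± 0.11. The gene called lower in control cells was Pih1d1, an assembly cofactor, at -0.40 ± 0.15 (edgeR adjusted p = 0.0327).

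Protein-coding genes that host snoRNAs moved less than the non-coding hosts in the median. Of 22 such genes 13 were called higher and 1 lower in cKO cells, and 8 higher and 1 lower in control cells, with median log2 fold changes of 0.34 and 0.19, beside the same shares of all genes (26.7% and 27.1% in cKO, 25.4% and 25.2% in control cells). Eif4a2, a translation initiation helicase gene, had 0.69 ± 0.10 in cKO and 0.82 ± 0.09 in control cells, and Tcp1, a chaperonin subunit gene, 0.60 ± 0.08 and 0.51 ± 0.08. The gene called lower in both genotypes was Hspa8, a constitutive chaperone, at -0.68 ± 0.12 and -0.73 ± 0.11 (edgeR adjusted p = 1.16e-04 and 3.74e-05). Dkc1 and Nop56 stand both among these 22 and among the core protein genes. Of 12 nonsense-mediated decay factors 5 were called higher and 2 lower in cKO cells, and 4 higher and 1 lower in control cells, at medians of 0.14 and 0.05, where 26.7% of all genes were higher and 27.1% lower in cKO cells, and 25.4% and 25.2% in control cells. Smg8 had the steepest rise, 0.73 ± 0.08 in cKO and 0.53 ± 0.08 in control cells, and Smg6, the endonuclease of the pathway, fell by 0.33 ± 0.09 and 0.26 ± 0.08 on the log2 scale.

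Short RNAs showed no such common change. Only 1 of 11 rows was called in each genotype, both times higher and both times a Snord3b copy, against the 26.7% of all genes called higher in cKO and 25.4% in control cells. No row was called lower, against 27.1% and 25.2% of all genes. An unadjusted edgeR p under 0.05 was reached by 3 and 2 of the 11 rows, and by 9218 and 8730 of all 15619 genes. DESeq2 called 3 rows in cKO and 2 in control cells, beside 8518 and 8000 of all genes. The median log2 fold change was 0.50 in cKO cells, with 7 of 11 rows above 0, and -0.19 in control cells, with 3 of 11 above 0. Those 3 rows were Snord3b2, Snord3b3 and Snord3b4, which were also among the 7 in cKO cells and whose single-row values are uncertain.

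**Figure D2:**
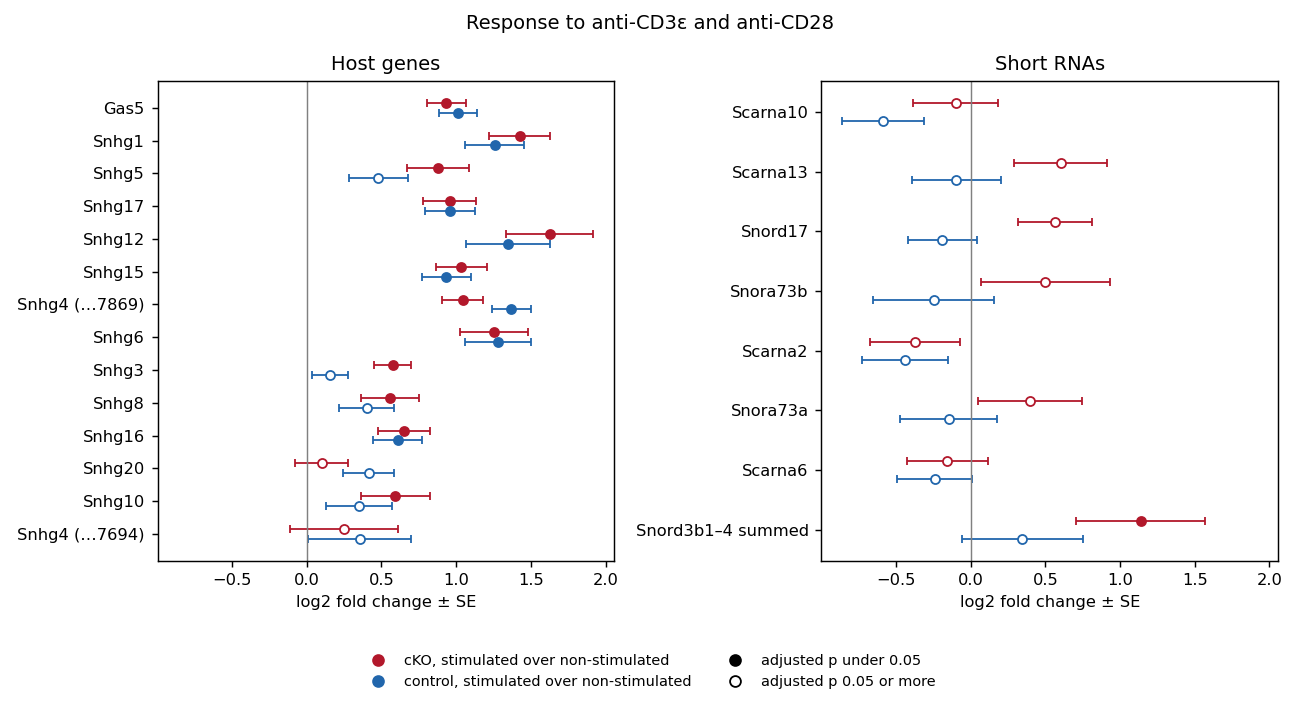
log2 fold change ± SE of restimulated over non-restimulated cells for the 14 host gene rows and for 8 short RNAs (Snord3b1 to Snord3b4 as 1 sum), in cKO and in control cells; filled points have an edgeR adjusted p under 0.05. All host points lie above 0, whereas the short RNA points lie on both sides of it.

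Scarna10 was by far the most abundant short RNA member. It had 238, 179, 318 and 118 CPM in restimulated cKO libraries and 284, 189 and 213 CPM in non-restimulated ones. In control cells it had 212, 244, 219, 139 and 156 CPM with restimulation and 322, 257 and 296 CPM without. In cKO cells the conditions overlapped, while in control cells every restimulated library was below every non-restimulated one. The log2 fold changes were -0.10 ± 0.29 in cKO (edgeR adjusted p = 0.786) and -0.59 ± 0.27 in control cells (edgeR adjusted p = 0.0861), neither past the threshold. The control value was called lower by DESeq2 (adjusted p = 0.0318), by edgeR on the control libraries alone (adjusted p = 0.0141) and by limma on both TPM scales (adjusted p = 0.0395 and 0.0428). In TPM Scarna10 averaged 1865 ± 356 (SD, n = 4) and 2222 ± 526 (n = 3) in restimulated and non-restimulated cKO cells, and 1859 ± 301 (n = 5) and 2514 ± 229 (n = 3) in the corresponding controls, above the level of Gas5 on the same scale in each of the 4 groups. Ncapd2, whose span holds Scarna10, was called lower in both genotypes, at -0.84 ± 0.12 in cKO and -0.79 ± 0.11 in control cells (edgeR adjusted p = 8.30e-06 and 9.07e-06).

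Scarna13, which lies in Snhg10 (chr12:105031075-105031349, minus strand, GRCm38), had 25.6, 15.5, 50.0 and 18.9 CPM in restimulated cKO libraries and 17.5, 18.5 and 17.97 CPM in non-restimulated ones. In controls it had 21.8, 16.1, 26.4, 18.5 and 18.1 CPM with restimulation and 22.1, 19.2 and 23.6 CPM without. A single restimulated cKO library stood far above the rest, and the log2 fold changes of 0.60 ± 0.31 and -0.10 ± 0.30 did not pass the threshold (edgeR adjusted p = 0.122 in cKO and 0.809 in control cells). Snord17 had 9.38, 8.16, 15.7 and 5.65 CPM in restimulated cKO libraries and 7.33, 5.44 and 6.76 CPM in non-restimulated ones. With restimulation the controls had 9.73, 11.6, 11.1, 8.92 and 8.38 CPM, and without it 12.1, 9.61 and 12.3 CPM. Conditions overlapped in both genotypes, with log2 fold changes of 0.57 ± 0.25 in cKO (edgeR adjusted p = 0.0639) and -0.19 ± 0.23 in control cells (edgeR adjusted p = 0.516). In cKO cells DESeq2 (adjusted p = 0.0432) and limma on both TPM scales (adjusted p = 0.0437 and 0.0453) called it higher.

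Snora73a and Snora73b, the U17 snoRNA that acts in cleavage of the ribosomal RNA precursor, are best read as a sum, given their identity. Together they had 13.3, 7.50, 16.9 and 8.71 CPM in restimulated cKO libraries and 10.1, 10.3 and 4.63 CPM in non-restimulated ones. In control cells they had 12.4, 10.1, 16.0, 8.87 and 10.0 CPM with restimulation and 15.1, 11.4 and 13.7 CPM without. The conditions overlapped in both genotypes, and neither row was called. Scarna2, which GENCODE M21 places outside any gene, had 9.97, 5.99, 6.36 and 5.05 CPM in restimulated cKO libraries and 6.57, 9.98 and 10.0 CPM in non-restimulated ones. In controls it had 8.88, 5.41, 9.20, 3.90 and 4.39 CPM with restimulation and 10.1, 9.25 and 6.66 CPM without. It leaned lower in both genotypes without a call, at -0.37 ± 0.30 and -0.44 ± 0.29. Scarna6, within Atg16l1, stayed between 1.61 and 5.06 CPM in all libraries and was not called.

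**Figure D3:**
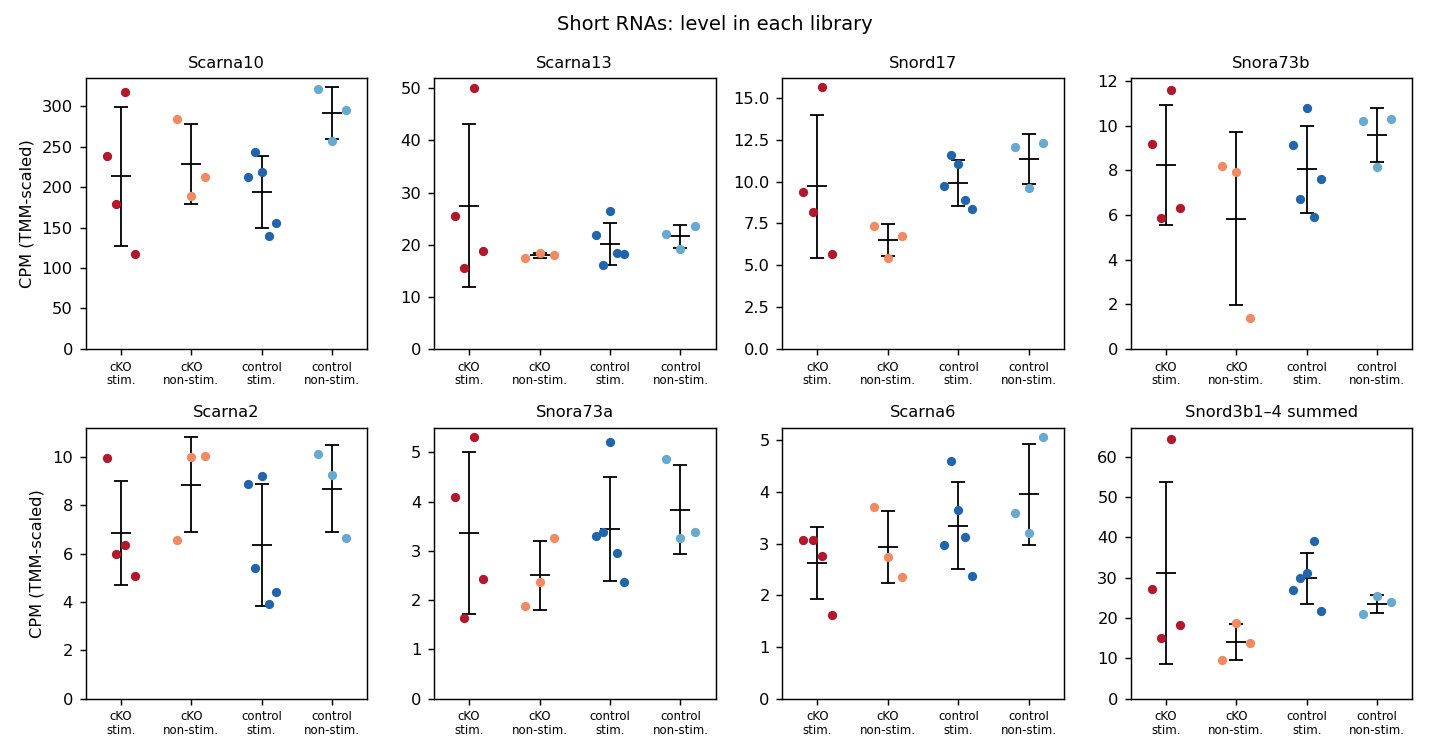
Level of the short RNAs in each library, in TMM-scaled CPM on an axis from 0, by group, with Snord3b1 to Snord3b4 summed; points are libraries, bars the mean ± SD. Library 3 of the restimulated cKO group is the highest of its group for Scarna10, at 318 CPM, and for Scarna13, at 50.0 CPM.

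The Snord3b calls came from rows at 0 in some libraries and high in others. Snord3b4 had 5.98, 0, 17.2 and 18.2 CPM in restimulated cKO libraries and 0 CPM in all 3 non-restimulated ones (edgeR adjusted p = 0.0245), but Snord3b1 had 18.7 and 13.8 CPM in non-restimulated cKO libraries 2 and 3 and Snord3b3 9.62 CPM in library 1. Snord3b2 had 8.19, 2.99, 7.05, 10.1 and 19.3 CPM in restimulated control libraries and 0 CPM in all 3 non-restimulated ones (edgeR adjusted p = 0.0486), while Snord3b1, Snord3b3 and Snord3b4 had counts in those libraries. How reads were shared between these copies was not tested, so single-row values are uncertain and no fold is given for them. Summed into 1 row, they had 27.1, 15.05, 64.3 and 18.2 CPM in restimulated cKO libraries and 9.62, 18.7 and 13.8 CPM in non-restimulated ones. The summed controls had 27.0, 29.9, 31.3, 39.2 and 21.7 CPM with restimulation and 20.9, 25.4 and 24.1 CPM without. Conditions overlapped in both genotypes. The summed log2 fold change was 1.14 ± 0.43 in cKO (edgeR adjusted p = 0.0449) and 0.34 ± 0.40 in control cells (edgeR adjusted p = 0.514), and in cKO cells it was 0.52 (edgeR adjusted p = 0.113) without library 3 of the restimulated group. The cKO call was lost in 11 of 16 alternatives, over which the log2 fold change ran between 0.52 and 1.71 and the edgeR adjusted p between 0.00176 and 0.1515. The sum was formed after the single rows had been seen.

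**Figure D4:**
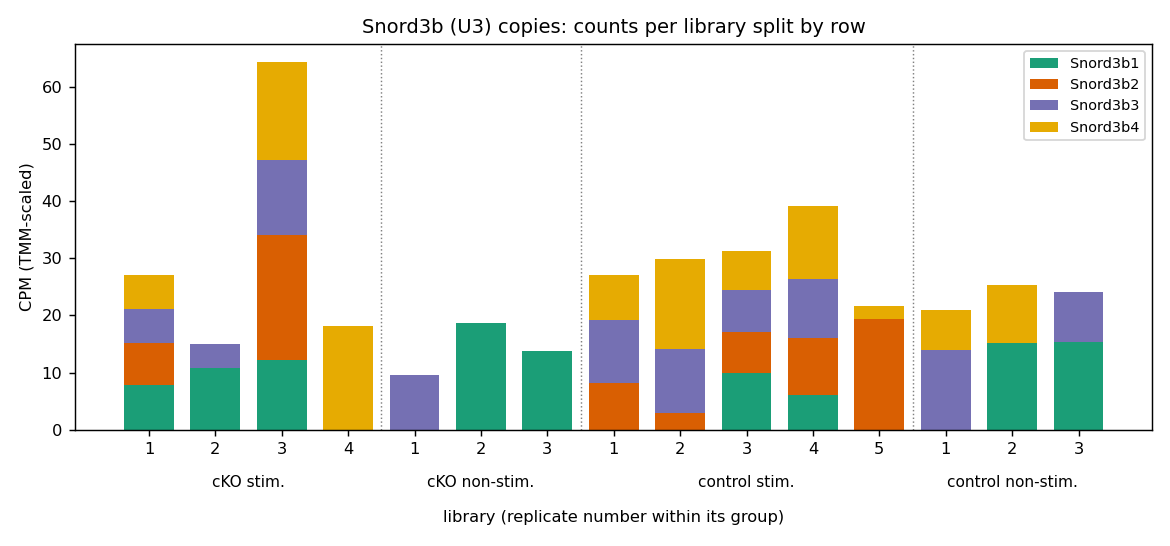
TMM-scaled CPM of Snord3b1, Snord3b2, Snord3b3 and Snord3b4 stacked for each library, by group. The rows with counts differ between libraries of 1 group, and the total is highest in library 3 of the restimulated cKO group, at 64.3 CPM.

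In restimulated cKO cells the level of short RNAs differed between libraries more than that of the hosts. Short RNA members took 0.0321%, 0.0236%, 0.0422% and 0.0179% of all counts in restimulated cKO libraries 1 to 4, a 2.35-fold range. The 95% Wilson intervals, which cover counting error only, reached 0.0186% at most in library 4 and 0.0412% at least in library 3, so counting does not span that range. Host members took 0.0787%, 0.0950%, 0.110% and 0.0977% in the same libraries, a 1.39-fold range. In non-restimulated cKO libraries the short RNA share ranged 1.34-fold and the host share 1.27-fold. In restimulated controls these ranges were 1.45-fold and 1.26-fold. In non-restimulated controls the hosts ranged more widely than the short RNAs, 1.335-fold against 1.18-fold. Within groups the coefficient of variation of CPM, as the median over the 4 groups for each member, had a median of 25.9% over 8 short RNAs (Snord3b summed) and 17.8% over 14 host rows. In restimulated cKO cells it ran between 26.3% and 72.8% for the short RNAs and between 7.45% and 37.7% for the hosts. The members differed in counts: Scarna6 and Snora73a averaged 63.3 and 64.2 estimated counts per library, Scarna10 4424 and Gas5 4832. The host row with the fewest, Snhg4 (ENSMUSG00000117694) at 31.7, had the highest median coefficient of all, 34.4%. The part of counting error in these coefficients was not tested.

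In some libraries most short RNAs lay on the same side of their group mean. Relative to the mean of its group, the median short RNA of restimulated cKO libraries 1 to 4 stood at 1.12, 0.776, 1.53 and 0.651. All 8 short RNAs were below their group mean in library 4 and 7 of 8 were below it in library 2. For restimulated control libraries 1 to 5 the medians were 1.03, 0.993, 1.22, 0.878 and 0.765, with all 8 short RNAs below their mean in library 5, 7 in library 4, 0 in library 3 and 4 in each of libraries 1 and 2. In the non-restimulated libraries of both genotypes the medians lay between 0.868 and 1.07, with 2 to 6 of 8 short RNAs below their mean. The median host row stayed between 0.794 and 1.15 in all 15 libraries.

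The median of other short structured RNAs, taken over rows that were not snoRNAs or scaRNAs, ranked the restimulated cKO libraries in the same order. Over 8 rows, among them Rn7sk, Rpph1 and Rmrp, it stood at 1.26, 0.708, 1.60 and 0.627 of the group mean in restimulated cKO libraries 1 to 4. The 8 rows included a second, low row of Rmrp (mean of 1.54 CPM) and Rnu2-10 and Rnu1a1, which were at 0 in some libraries. The list they were taken from also named U3 copies (Rnu3a and Rnu3b1 to Rnu3b4), but these had no row. In restimulated control libraries the median stood at 1.06, 1.12, 1.17, 0.626 and 0.784, not in the order of the short RNAs there. Single rows did not all follow the order of the median. Rn7sk, the RNA that holds the elongation factor P-TEFb inactive, had 9454, 6727, 16097 and 7069 CPM in restimulated cKO libraries. Rpph1 had 4792, 2418, 2589 and 2218 CPM there and Rmrp 244, 164, 166 and 136 CPM, both highest in library 1. None of the 10 such rows tested was called in either stimulation comparison. Over all genes 26.7% were called higher and 27.1% lower in cKO cells, and 25.4% and 25.2% in control cells. Library 3 of the restimulated cKO group also had 9.43% of its counts in mitochondrial genes, beside 4.36% to 6.24% in the other 14 libraries. With mitochondrial genes left out its short RNA share was 0.0466% and that of library 4 was 0.0191%. The part of RNA or library preparation in these shifts was not tested.

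**Figure D5:**
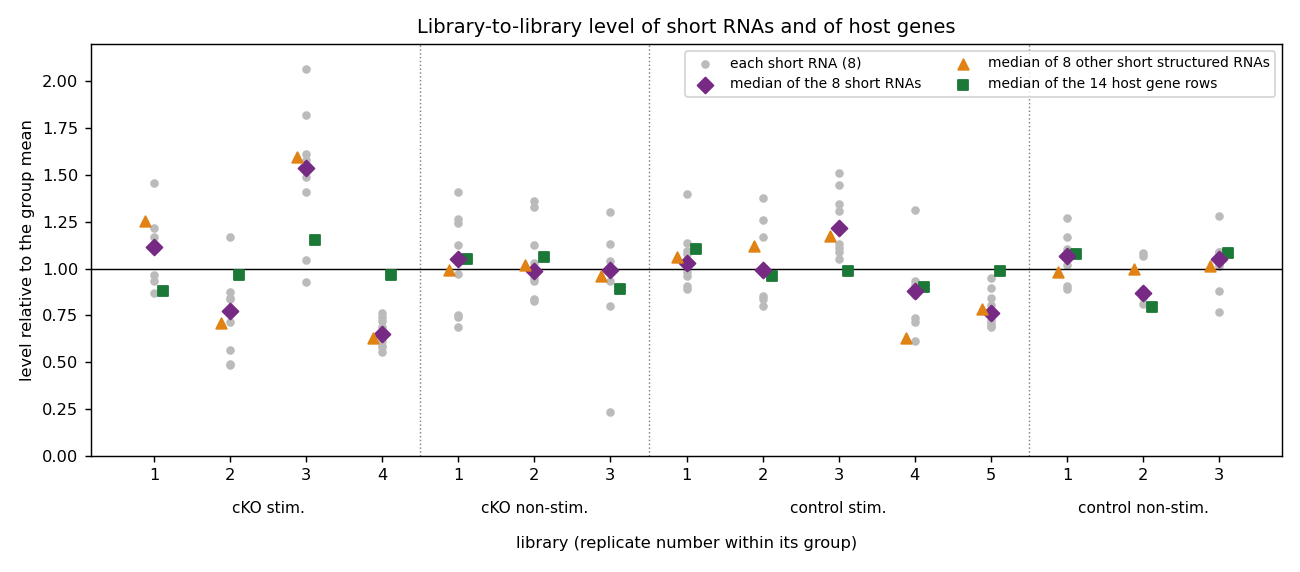
Level in each library relative to the mean of its group: grey points are 8 short RNAs, diamonds their median, triangles the median of 8 rows of other short structured RNAs, squares the median of the 14 host gene rows. In restimulated cKO libraries the diamonds stand at 1.12, 0.776, 1.53 and 0.651 and the triangles beside them, while the squares stay between 0.880 and 1.15.

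Leaving out the 3 libraries whose short RNA median was under 0.8 of the group mean (libraries 2 and 4 of the restimulated cKO and library 5 of the restimulated control group) kept all 12 host calls in cKO cells and all 8 in control cells, with Snhg8 and Snhg20 added in control cells. Of all genes 7333 were then called in cKO and 7472 in control cells, against 8398 and 7897 with every library kept. The short RNA calls became 5 in cKO cells, adding Snord17, Scarna13, Snora73a and Snord3b2 to Snord3b4, and 2 in control cells, adding Scarna10 as lower. Because these libraries were picked for low short RNA within their group, the larger count is no independent evidence of a rise. The cut did not take the lowest shares: restimulated control library 4, kept at a median of 0.878, had a share of 0.0222%, against 0.0236% in the removed cKO library 2. Without library 3 of the restimulated cKO group 11 host rows and 1 short RNA row were called in cKO cells. Without library 2 of that group 4 short RNA rows were called, without library 4 it was 3, and without any 1 of the 3 non-restimulated cKO libraries it was 0.

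The ratio of summed short RNA to summed host counts was lower in restimulated libraries. It was 0.407, 0.249, 0.385 and 0.184 in restimulated cKO libraries against 0.692, 0.484 and 0.643 in non-restimulated ones. In control cells it was 0.275, 0.338, 0.338, 0.259 and 0.221 with restimulation and 0.731, 0.830 and 0.727 without. The conditions did not overlap in either genotype. Scarna10, which lies within Ncapd2 and not in a host member, held 66364 of the 89231 counts of short RNA members. Without it restimulated cKO library 3 had 156 short RNA CPM beside 1230 host CPM, and non-restimulated cKO library 1 had 54.8 beside 489. The ratio then overlapped between conditions in cKO cells but not in control cells. Either ratio is a description over chosen members, with no test.

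Between genotypes no member was called. In restimulated cells 0 of 14 host rows and 0 of 11 short RNA rows were called for cKO against control by edgeR's quasi-likelihood test, where Asb2 was the 1 gene called of all those tested (0.0064%). Without restimulation it was 0 and 0, and 0% of all genes; for the interaction, the difference between the responses of cKO and control cells, it was again 0 and 0, and 0% of all genes. DESeq2 called no member in any of the 3. An unadjusted edgeR p under 0.05 was reached by 1 host row in restimulated cells, Snhg3, and by 2 short RNA rows without restimulation, Snord17 and Snord3b4. For the interaction it was reached by the same 1 host row and the same 2 short RNA rows. The single-row values of Snord3b4 are uncertain, as stated above. Over all genes such a p was reached by 283, 402 and 605 of 15619 in these 3 comparisons.

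The host row with the smallest p in restimulated cells was Snhg3, whose values are given above, at a log2 fold change of 0.29 ± 0.11 for cKO over control (edgeR adjusted p = 1). Snhg4 (ENSMUSG00000117869) had -0.12 ± 0.12 and Snhg17 -0.11 ± 0.15. Without restimulation the same Snhg4 row had 0.20 ± 0.15, Snhg5 -0.29 ± 0.22 and Snhg20 0.22 ± 0.19. Of the 14 host rows, log2 fold changes for cKO over control ran between -0.16 and 0.29 in restimulated cells and between -0.29 and 0.22 in non-restimulated cells. For the interaction the 3 host rows with the smallest p were Snhg3, Snhg4 (ENSMUSG00000117869) at -0.32 ± 0.19 and Snhg5 at 0.40 ± 0.29.

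Among the short RNAs, Snord17 had 7.33, 5.44 and 6.76 CPM in non-restimulated cKO libraries against 12.1, 9.61 and 12.3 CPM in controls, with no overlap. Its log2 fold change was -0.80 ± 0.26 (edgeR adjusted p = 1), the smallest p of the short RNAs without restimulation, and its interaction was 0.76 ± 0.34 (edgeR adjusted p = 0.997). Snora73a had -0.60 ± 0.37 without restimulation. In restimulated cells Scarna13 had 0.43 ± 0.27 and Scarna6 -0.35 ± 0.24 (edgeR adjusted p = 1 for both), and Scarna13 turned to -0.02 without library 3 of the restimulated cKO group.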

How the data were processed

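RNA of 15 libraries was sequenced from a stranded total RNA kit with ribosomal RNA depletion, per the labels' protocols. The authors deposited estimated (expected) counts, not scaled between samples, and TPM values, normalized per library. The tools named by the submitters' processing notes are Salmon 1.10.1, STAR 2.7.9a and cutadapt 3.4, with the GRCm39 build; the role of each tool, the annotation release and any size selection are not given in the sources used here. In each library 8.94% to 9.83% of the deposited estimated counts were not whole. Libraries held 17083701 to 24185341 counts.

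Counts were rounded to whole numbers. edgeR 4.0.16 (R 4.3.3) kept 15619 genes (filterByExpr), scaled libraries by the trimmed mean of M-values (TMM) and fitted a robust quasi-likelihood model with 1 mean per group to all libraries; tests were two-sided, Benjamini-Hochberg adjusted over all genes tested, and called under 0.05. SEs come from the same model. The fit was also run on simulated data, with 1 spread for all genes and changes planted only in genes with high counts. That run does not cover rows with a wider spread, few counts or 0 in a whole group, as among the short RNAs. Alternatives were DESeq2 1.42.0, limma 3.58.1 on log2(TPM + 0.1) and log2(TPM + 1), other filters and scalings, replicate blocks, and each library left out. Lengths and positions are from GENCODE M21 (GRCm38), matched by Ensembl identifier or symbol.

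The members and lists were chosen with earlier results of these data known. Named with values are the 8 host genes and 8 short RNAs with the highest mean CPM, the 6 of each with the smallest p per stimulation comparison, the 3 of each for the other comparisons, and up to 4 genes of each list.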

Additional observations from a re-analysis of the deposited data

Results flagged for a closer look

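Snhg8 had 30.4 CPM in library 3 of the restimulated cKO group, far from the next value of that group, 16.7 CPM; the gap was 0.86 of the whole range of the 4 libraries. It was the 1 such library among 60 combinations of a member or sum and a group of 4 or 5 libraries, and chance alone would mark about 1 in 20. The same library had the highest short RNA share and the highest mitochondrial share of its group.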

How the results depend on the processing

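Called host rows numbered 10 to 12 in cKO and 8 to 11 in control cells over all alternatives with every library kept, and 10 to 12 and 7 to 11 with 1 library left out. Of all genes, 6014 to 8518 in cKO and 5823 to 8000 in control cells were called in either direction with every library kept. With 1 library left out it was 7428 to 8506 and 6682 to 8076, so member counts moved beside a changing total. The 8 host calls in control cells were kept in all of these alternatives except that Snhg16 was lost without library 2 of the non-restimulated controls. In cKO cells Snhg10, Snhg8 or both were the only losses. Called short RNAs, 1 in each genotype, were less stable. In cKO cells they were 3 with DESeq2, 0 with only the groups compared, 2 with a replicate block within genotype, 2 with each TPM pseudocount, 3 with short RNA rows scaled by their own sum, 2 without robust dispersion, 5 without the low libraries and 0 to 4 with 1 library left out. In control cells they were 2 with DESeq2, 0 with no filter on low counts, 2 with only the groups compared, 0 with a replicate block, 2 with each TPM pseudocount, 2 without the low libraries, 0 with Snord3b summed and 0 to 2 with 1 library left out. The cause was not tested. Scarna13 for cKO over control in restimulated cells was 0.43 with all libraries and -0.024 to 0.63 with 1 library left out; it turned to -0.024 without replicate 3 of that cKO group. On log2(TPM + 0.1) the median of all genes lay at -0.09 in cKO and 0.14 in control cells, where the host medians were 0.94 and 0.93; Snhg20 was below 0 in cKO cells on both TPM scales and without the low libraries. Whether same-numbered libraries pair cannot be told from their correlations, as differently numbered pairs were not set beside them. Within genotype (6 pairs) their deviations correlated at 0.0802, 0.0961 and 0.11 in cKO and at 0.0785, -0.139 and -0.205 in control cells. The replicate block gave 11 host calls in cKO and 9 in control cells. It gave 1 short RNA call in cKO cells, Snord17 (0.66, edgeR adjusted p = 0.0136) in place of Snord3b4. With a block within genotype the 2 short RNA calls in cKO cells were Snord17 and Snord3b2. No genotype or interaction count of members left 0 under any alternative. A count of 0 allows up to 3 counts per library, so no difference could be measured for the short RNAs under 100 nt.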
